A study of Homo sapiens with 4 samples.

Results

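Antisense noncoding RNA genes are transcribed from the opposite strand of another gene, the sense gene, and carry its name with the ending -AS and a number. The tables of HT29 cells listed 483 genes with such a symbol among 53617 genes, and 86 of them had a mean of at least 1 FPKM over 4 libraries. FPKM is a read density per transcript length and library size, and the 86 genes were chosen by that mean alone. HT29 is an established human colon adenocarcinoma cell line, here at passages 12 to 13. One culture per group was transfected with a miR-23b precursor (labelled high miR23b), the precursor control, an antimir against miR-23b (labelled low miR23b) or the antimir control. All 4 cultures were grown in 5% serum to 90% confluency and received 50 nM of their oligonucleotide (the labels write 50nm) with Lipofectamine 2000. The medium was changed after 24 h and RNA was taken after 48 h. Precursors are double-stranded RNAs that cells process into more of a given microRNA, whereas antimirs are complementary oligonucleotides that pair with it and take it out of use.

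Each group held 1 library, so no difference below has a replicate check and none has a p-value. FPKM tables hold no read counts, so the depth is unknown and no interval is given. The precursor table and the antimir table were normalised separately, and each treated library is compared with the control in its own table. In bulk RNA, fewer cells of a kind and less RNA per cell cannot be told apart. All 8 colon epithelial markers were measured, between 2.19 and 6798 FPKM. The 7 measured markers of other cell types lay between 0 and 0.816 FPKM.

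Antisense transcripts can start beside the promoter of the sense gene, lie inside it or run into its end. Some act on the sense gene at the same locus, by meeting its transcription or by pairing with its RNA, and others act elsewhere in the cell or only host small RNAs in their introns. MicroRNAs act on an RNA mainly through pairing with the seed, bases 2 to 8 of the mature microRNA, and long noncoding RNAs can hold such matches as well. The mature miR-23b-3p is shown with its relative miR-23a-3p because both carry an identical seed, given in capitals. The sequences are from RefSeq (GRCh38.p14), where miR-23b-3p lies at chr9:95085265-95085287 on the plus strand and miR-23a-3p at chr19:13836595-13836615 on the minus strand.
hsa-miR-23b-3p: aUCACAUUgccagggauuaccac
hsa-miR-23a-3p: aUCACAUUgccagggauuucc

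The complement of the seed, AATGTGA, was looked for in the sense direction of 1 transcript per antisense gene, the most abundant with a sequence in GENCODE 29. These sequences may differ from the annotation behind the tables. Of 77 matched genes, 11 (14.3%) held the 7-mer, with 16 matches or 0.170 per kb. Over all 11443 antisense-type transcripts of that release 10.3% held it, at 0.118 per kb. The matched transcripts had a median length of 598 bases and the antisense-type transcripts one of 632 bases. The stretches below, with the 7-mer in capitals, are from 4 genes with a match whose values are described further on. Sequences were taken by transcript identifier. The gene identifier of HNRNPU-AS1 was not matched in GENCODE 29, so its matches rest on the transcript identifier alone. The gene and strand of that transcript in the release were not checked. A match is a description of letters and not a bound site.
HNRNPU-AS1, transcript bases 565 to 571: tacattttatctgtaaAATGTGAc
HNRNPU-AS1, transcript bases 1856 to 1862: taatcttcccctcaccAATGTGAa
HNRNPU-AS1, transcript bases 12808 to 12814: ctgttggaagagacaaAATGTGAc
OIP5-AS1, transcript bases 7581 to 7587: caggctggagtgaagcAATGTGAt
GLYCTK-AS1, transcript bases 231 to 237: tcctctgaactcccaaAATGTGAc
DNAJC27-AS1, transcript bases 213 to 219: cttccctttagctgacAATGTGAc

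RefSeq promoter windows, from 250 bases before to 50 bases after a start site, were at hand for 51 of the 86 genes. In 12 of the 44 pairs with a window for both genes the windows overlapped, and in all 12 the RefSeq start of the sense gene lay upstream of that of the antisense gene, on the other strand. GENCODE 29, used below for arrangements, places some starts elsewhere and lists 6 of these 12 pairs as overlapping head to head, 3 as divergent, 1 as tail to tail, 1 as spanning and 1 not matched. The start sites of these 12 pairs were 18 to 462 bases apart. Windows reach further before a start than after it, so choosing pairs by overlap largely sets the order of starts and bounds their distance. The antisense windows of the 12 pairs held a median of 29 CG pairs, against 9 in the other 39 windows and 14 over all 27305 windows. A pair with many CG pairs and a pair with few are shown, with the stretch between the start sites in capitals. The window of DNAJC27-AS1 (GRCh38.p14, chr2:24971862-24972161, plus strand) held 31 CG pairs with start sites 18 bases apart. That of TM4SF1-AS1 (chr3:149377528-149377827, plus strand) held 4 CG pairs with start sites 129 bases apart.
DNAJC27-AS1: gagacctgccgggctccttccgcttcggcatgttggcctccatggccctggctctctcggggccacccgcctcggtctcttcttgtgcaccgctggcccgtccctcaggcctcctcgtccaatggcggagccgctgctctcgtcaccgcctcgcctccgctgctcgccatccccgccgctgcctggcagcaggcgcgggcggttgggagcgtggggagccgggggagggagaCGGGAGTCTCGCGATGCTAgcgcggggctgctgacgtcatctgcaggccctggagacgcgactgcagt
TM4SF1-AS1: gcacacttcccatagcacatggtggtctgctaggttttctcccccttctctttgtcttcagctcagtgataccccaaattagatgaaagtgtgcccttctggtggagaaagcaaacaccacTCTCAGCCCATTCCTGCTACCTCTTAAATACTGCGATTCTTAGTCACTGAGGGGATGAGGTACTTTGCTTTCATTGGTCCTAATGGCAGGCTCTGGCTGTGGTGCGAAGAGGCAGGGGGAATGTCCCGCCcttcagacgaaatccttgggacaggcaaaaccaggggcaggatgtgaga

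Most antisense genes were low in HT29. Of the 483 symbols, 184 were listed at 0 in all 4 libraries, 209 were above 0 and below the filter, and 4 had no value in the antimir table because every entry had failed there. Of the 86 genes that passed, 59 had a mean of 1 to 5 FPKM, 27 had at least 5 FPKM, 21 at least 10 FPKM and 2 at least 100 FPKM. The members nearest to the filter were CA5B-AS1 at 1.09, HAS2-AS1 at 1.05, MFI2-AS1 at 1.04 and C6orf47-AS1 at 1.03 FPKM. Just outside it lay BDNF-AS1 at 0.978, RBM26-AS1 at 0.952, TRIM31-AS1 at 0.951 and MORC2-AS1 at 0.925 FPKM.

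Their median level was alike in the 4 libraries, at 3.11 FPKM in the precursor, 2.92 in the precursor control, 2.92 in the antimir and 2.92 in the antimir control. The median over all genes past the filter was 14.5 FPKM in the precursor, 14.4 in its control, 8.69 in the antimir and 8.68 in its control. The summed FPKM of the 86 genes was 1878 in the precursor and 1843 in its control, and 1621 in the antimir and 1671 in its control. The 3 highest genes held 67.9 to 69.1% of that sum in each library.

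The highest of them was C17orf76-AS1 (hg19 locus chr17:16342289-16395467), a host of small nucleolar RNAs in its introns. It is named LRRC75A-AS1 in GENCODE 29 and SNHG29 in RefSeq. C17orf76-AS1 had 739.2 FPKM in the precursor and 717.2 in its control, and 579.1 in the antimir and 676.2 in its control. ZNFX1-AS1 (ZFAS1, another small nucleolar RNA host; chr20:47826982-47905797) had 470.5 FPKM in the precursor and 475.8 in its control, and 454.0 in the antimir and 410.8 in its control. EPB41L4A-AS1 (chr5:111478138-111755013), which also hosts a small nucleolar RNA, had 88.4 FPKM in the precursor and 72.1 in its control, and 67.7 in the antimir and 67.2 in its control. None of these 3 hosts reached 1.5-fold in either comparison. Their centred differences on the log2(FPKM + 1) scale were 0.02, -0.04 and 0.27 in the precursor against its control, and -0.19, 0.18 and 0.05 in the antimir against its control, in the order named.

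Among the next in level, FGD5-AS1, a long noncoding RNA studied in several cancers, had 41.2 FPKM in the precursor and 40.5 in its control, and 34.2 in the antimir and 36.8 in its control. OIP5-AS1, the mammalian relative of the conserved RNA cyrano that pairs with miR-7, had 34.3 FPKM in the precursor and 38.9 in its control, and 33.1 in the antimir and 35.0 in its control. In OIP5-AS1 both treated libraries lay below their controls, by 0.20 and 0.04 on the log2 scale. Its most abundant isoform, ENST00000500949.2, holds the seed match shown above. It had 16.9 FPKM in the precursor against 16.5 in its control, and 17.2 in the antimir against 18.4 in its control. With that isoform alone the precursor difference was 0.0032. ABHD11-AS2 stood at 39.9 to 45.8 FPKM and MED4-AS1 at 17.0 to 21.2 FPKM over the 4 libraries, with differences of at most 0.05 in size. The plot of the abundant genes gives all 21 with a mean of at least 10 FPKM.

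**Figure D1:**
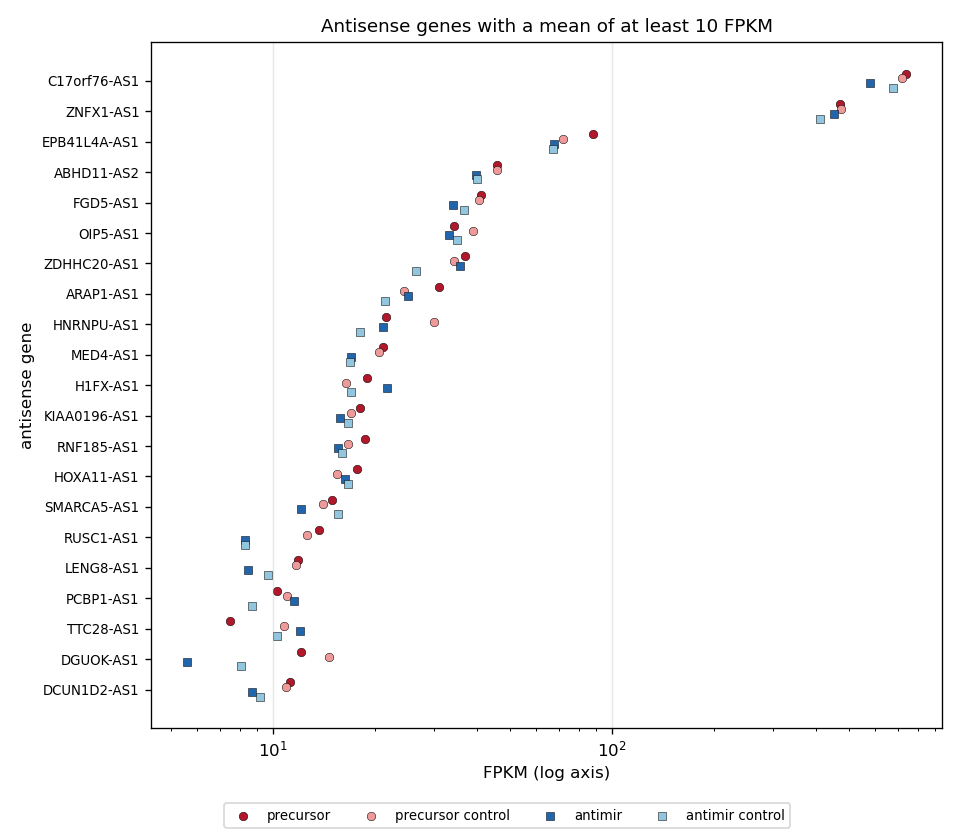
FPKM (log axis) of the 21 antisense genes with a mean of at least 10 FPKM, 1 point per library, in the precursor, the precursor control, the antimir and the antimir control. C17orf76-AS1 and ZNFX1-AS1 stand at 410.8 FPKM or more in every library, while the third gene, EPB41L4A-AS1, lies between 67.2 and 88.4 FPKM.

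The antisense gene was usually the lower one of its pair. It lay below its sense gene in 68 of 86 pairs in the precursor and in 68 in the precursor control, and in 66 pairs in the antimir and in 66 in the antimir control. By the mean of the 4 libraries it was lower in 67 of 86 pairs (77.9%), with a median of 2.77 FPKM for the antisense genes and 20.3 FPKM for the sense genes. The median ratio was 0.221, and 19 genes lay under 0.1 of their sense gene. The lowest ratio was that of RAD21-AS1, at 0.00515 of RAD21, a cohesin subunit that averaged 475.7 FPKM. UBAC2-AS1, RRM1-AS1, UBE2Q1-AS1 and TTC3-AS1 followed at 0.0124 to 0.0152. No source states the strand of the libraries, so reads of a pair that shares exon bases cannot be told apart by strand. This limits the levels and ratios of such pairs, and also their differences between treated and control libraries given below. Exons overlapped in 66 of the 76 pairs matched in GENCODE 29, by a median of 18.1% of the antisense exon bases.

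In 19 pairs the antisense gene was the higher one. FGD5-AS1 averaged 38.2 FPKM while FGD5, an exchange factor of endothelial cells, was listed at 0.0044 FPKM in the precursor and at 0 in the other 3 libraries, so no ratio is given. TTC28-AS1 averaged 10.2 FPKM against 0.217 for TTC28, and ENTPD3-AS1 1.95 FPKM against 0.0144 for ENTPD3, an enzyme that splits nucleotides outside the cell. EPB41L4A-AS1 was 35.9 times, ZNFX1-AS1 19.1 times and C17orf76-AS1 16.7 times the level of its sense gene.

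Antisense RNAs with a described function differed widely in level, from a mean of 0 FPKM for ZEB2-AS1 to 38.2 FPKM for FGD5-AS1. ZEB1-AS1 had 2.12 FPKM in the precursor and 2.19 in its control, and 3.08 in the antimir and 1.83 in its control, while ZEB1, a transcription factor of the mesenchymal transition, ran from 0.315 to 0.711 FPKM over the 4 libraries. PCBP1-AS1 had 10.3 FPKM in the precursor and 11.04 in its control, and 11.6 in the antimir and 8.69 in its control, at 0.118 of PCBP1, an RNA-binding protein. With OIP5-AS1 and FGD5-AS1 these are 4 of the 5 genes that passed the filter among 36 listed antisense RNAs with a described function. Another 4 were below it (MCM3AP-AS1 at 0.707 FPKM, TP73-AS1 at 0.0369, GAS6-AS1 at 0.0101 and ZEB2-AS1 at 0) and 27 were not analysed here.

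By arrangement in GENCODE 29, 30 antisense genes lay inside the sense gene, with a median ratio of 0.138 and 3 above the sense gene. In the 22 pairs that overlapped head to head the median ratio was 0.258, with 7 above, and in the 16 that overlapped tail to tail it was 0.318, with 6 above. The 4 divergent pairs that did not overlap had a median ratio of 0.104 and none above. Of the remaining 14 pairs, 3 antisense genes spanned the sense gene, 1 faced it without overlap and 10 were not matched. Ratios within every larger class ran over more than 100-fold, so the classes overlap widely, as the plot of ratios shows.

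**Figure D2:**
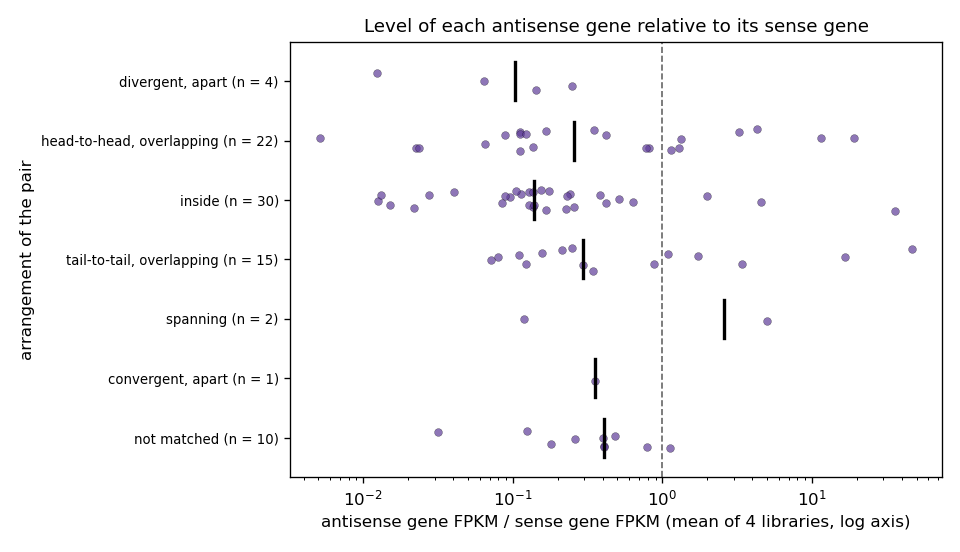
Ratio of the antisense gene to its sense gene (mean FPKM of 4 libraries, log axis) by arrangement of the pair, 1 point per pair, with a bar at the median of the points drawn and a dashed line at equal levels. FGD5-AS1 and ENTPD3-AS1 are not drawn, since their sense genes were under 0.1 FPKM, and the other 84 pairs lie mostly left of the line.

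With the precursor, the antisense genes as a group did not move to either side. The median centred difference was 0.00094 on the log2(FPKM + 1) scale, with 44 genes above 0 and 42 below, beside a median of -0.0013 over all 16469 genes. Centring removed the median of all genes, 0.022, and a difference on this scale understates the fold of low genes. Past 1.5-fold were 8 of the 86 (9.30%), against a background of 6.4% of all genes. Of these, 5 were higher and 3 lower, against 3.19% and 3.21% of all genes. All but 1 of the 8 had a mean of 1 to 5 FPKM, where the count was 7 of 59 antisense genes (11.9%) against 10.6% of all genes at that level. At 5 FPKM and above it was 1 of 27, against 4.62% of all genes, and the median size of a difference was 0.142 for the 86 genes and 0.115 for all genes.

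The 5 genes past 1.5-fold higher were ALG13-AS1, EHMT2-AS1, EAF1-AS1, MCF2L-AS1 and ABHD11-AS1. ALG13-AS1, which lies inside ALG13, a gene of N-glycan synthesis, had 4.25 FPKM in the precursor and was listed at 0 in its control, so no fold is given. It had 1.93 FPKM in the antimir and 2.02 in the antimir control. The precursor library was the highest and its control the lowest, with both antimir libraries between them. The exons of this gene span 195 bases in GENCODE 29. The tables also hold entries named by a gene identifier, left out of these sums where a gene has transcripts. Adding them took EHMT2-AS1, EAF1-AS1 and MCF2L-AS1 below 1.5-fold.

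EHMT2-AS1, opposite the histone H3 methyltransferase gene EHMT2, had 3.15 FPKM in the precursor against 0.834 in its control, a difference of 1.15 on the log2 scale (0.14 with its gene-identifier entry). It had 1.11 FPKM in the antimir and 1.14 in its control, so the precursor library alone was high. EHMT2 itself had 27.0 FPKM in the precursor and 26.1 in its control.
EAF1-AS1, opposite a cofactor of transcript elongation, had 4.20 FPKM in the precursor against 1.71 in its control (difference 0.92, or 0.24 with its gene-identifier entry), and 2.77 in the antimir and 3.04 in its control. Here the precursor library was the highest of the 4 and its control the lowest. EAF1 ran from 6.84 to 9.39 FPKM over the 4 libraries.
ABHD11-AS1 had 6.28 FPKM in the precursor against 3.48 in its control (difference 0.68), and 3.72 in the antimir and 3.45 in its control. Only the precursor library was high, while ABHD11-AS2, the other antisense gene named after the same sense gene, had 45.8 FPKM in both the precursor and its control.

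The 3 genes past 1.5-fold lower were TAB3-AS2, PSPC1-AS1 and OCIAD1-AS1. OCIAD1-AS1, inside OCIAD1, had 3.41 FPKM in the precursor against 5.61 in its control (difference -0.60), and 5.43 in the antimir and 7.54 in its control. It was the one gene with a mean of at least 5 FPKM past 1.5-fold, and its difference was -0.46 with the gene-identifier entry added. OCIAD1 had 249.7 FPKM in the precursor and 247.0 in its control.

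Short of 1.5-fold, much of the difference in 2 abundant genes lay in a single isoform of each. HNRNPU-AS1, beside the gene of a nuclear RNA-binding protein, had 21.7 FPKM in the precursor against 30.0 in its control (difference -0.47), and 21.2 in the antimir against 18.1 in its control (difference 0.26). Its isoform ENST00000489705.1 had 2.56 FPKM in the precursor against 8.04 in its control, and 2.28 in the antimir against 0 in its control. The 3 matches to the miR-23b seed shown above are in the long isoform ENST00000366527.3, which had 12.3 FPKM in the precursor against 14.9 in its control, and 13.9 in the antimir against 13.4 in its control. The isoform with the larger difference held no match. TTC28-AS1 had 7.48 FPKM in the precursor against 10.8 in its control (difference -0.50), and its isoform ENST00000436996.1 had 1.59 against 4.13. SGOL1-AS1 had 3.08 FPKM in the precursor against 4.35 in its control (difference -0.41).

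In the antimir, too, the group median stayed near 0, at 0.0090, with 44 genes above 0 and 42 below, beside 0.020 over all genes. Past 1.5-fold were 8 of 86 genes (9.30%), against a background of 7.37% of all genes. Of these, 3 were higher and 5 lower, against 4.72% and 2.65% of all genes. All 8 had a mean of 1 to 5 FPKM, where they made up 13.6% of 59 antisense genes against 11.2% of all genes at that level. At 5 FPKM and above the count was 0 of 27, against 5.76% of all genes. The median size of a difference was 0.210 for the antisense genes and 0.131 for all genes.

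The 3 genes past 1.5-fold higher were TAB3-AS2, GLYCTK-AS1 and DNAJC27-AS1. GLYCTK-AS1, opposite the glycerate kinase gene, had 5.74 FPKM in the antimir against 1.61 in its control (difference 1.41), and 3.25 in the precursor and 2.99 in its control. Of this, 4.09 FPKM came from the isoform ENST00000472761.1, which was listed at 0 in the other 3 libraries. The isoform ENST00000467187.1, which holds the seed match, had 1.66 FPKM in the antimir against 1.61 in its control, and counting the isoforms tested in both tables gave a difference of 0.069 for the gene. DNAJC27-AS1 had 2.51 FPKM in the antimir against 1.31 in its control (difference 0.64), and 1.42 in the precursor and 1.16 in its control. Its isoform ENST00000421842.1, which holds the seed match shown above, had 1.55 FPKM in the antimir and was listed at 0 in its control. That isoform had 0.769 FPKM in the precursor and 0.533 in its control. The 7-mer was held by 4 of the 7 transcripts of this gene, and they did not move alike. With a match, ENST00000422449.1 had 0.295 FPKM in the antimir against 0.699 in its control. ENST00000421904.1, also with a match, had 0.550 FPKM in the antimir against 0.345 in its control.

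The 5 genes past 1.5-fold lower were PSPC1-AS1, SIAH2-AS1, MCF2L-AS1, C13orf44-AS1 and C6orf47-AS1. SIAH2-AS1, inside the gene of a ubiquitin ligase, had 0.943 FPKM in the antimir against 2.87 in its control (difference -0.96), and 2.61 in the precursor and 2.28 in its control. Here the antimir library alone was low, and with the gene-identifier entry added the difference was -0.50, short of 1.5-fold. C13orf44-AS1 had 1.05 FPKM in the antimir against 2.49 in its control (difference -0.73), and 2.22 in the precursor against 1.14 in its control. In the precursor, 1.199 FPKM came from the isoform ENST00000437867.1, listed at 0 in the other 3 libraries, and with the other isoform alone the precursor difference was -0.11. C6orf47-AS1 had 0.938 FPKM in the antimir against 2.12 in its control (difference -0.65), with 0.398 in the precursor and 0.675 in its control, so its antimir control was the high library. The other 3 libraries were each below 1 FPKM, so this gene passed the filter through that control, its difference follows from that, and it was -0.11 with the gene-identifier entry added. Short of the threshold, ZFAT-AS1 had 0.926 FPKM in the antimir against 1.91 in its control (difference -0.56), while ZEB1-AS1 (difference 0.56), WDFY3-AS1 (0.48) and ZDHHC20-AS1 (0.45) were on the other side. With a pseudocount of 0.1 ZFAT-AS1 and ZEB1-AS1 were past 1.5-fold, at -0.93 and 0.76, and ZEB1-AS1 also with its most abundant isoform alone, at 0.71.

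Past 1.5-fold in both comparisons were 3 genes, and 73 were past it in neither. Of the 13 genes past it in either comparison, 9 were also past it between the 2 control libraries, which were normalised separately. Over all genes that share was 25.3%, and it was 36.8% at 1 to 5 FPKM. The same control values enter both kinds of difference, so these counts are not independent. TAB3-AS2, inside the gene of an adaptor protein of the kinase TAK1, had 0.747 FPKM in the precursor against 6.02 in its control (difference -2.03), and 3.38 in the antimir against 0.171 in its control (difference 1.94). The direction was opposite in the comparisons, and the 2 controls held the highest and the lowest value of the 4 libraries. TAB3 itself ran from 3.82 to 4.29 FPKM, and all of the 292 exon bases of TAB3-AS2 overlap exons of TAB3. With the gene-identifier entry added its differences were -0.48 and 0.34, short of 1.5-fold.
MCF2L-AS1, inside MCF2L, had 4.81 FPKM in the precursor against 2.33 in its control (difference 0.78), and 1.31 in the antimir against 3.47 in its control (difference -0.91). The directions were again opposite, and with the gene-identifier entry added the differences were 0.44 and -0.44, short of 1.5-fold, while MCF2L had 46.2 FPKM in the precursor and 36.4 in its control, and 28.1 in the antimir and 24.0 in its control.
PSPC1-AS1, named after the gene of a paraspeckle protein, had 0.0795 FPKM in the precursor against 2.24 in its control (difference -1.61), and 0.877 in the antimir against 2.97 in its control (difference -1.04). Both treated libraries were below both controls. Each treated library was also below 1 FPKM, so this gene passed the filter through its controls. Its lower treated values follow in part from that. PSPC1 ran from 42.2 to 53.3 FPKM.

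**Figure D3:**
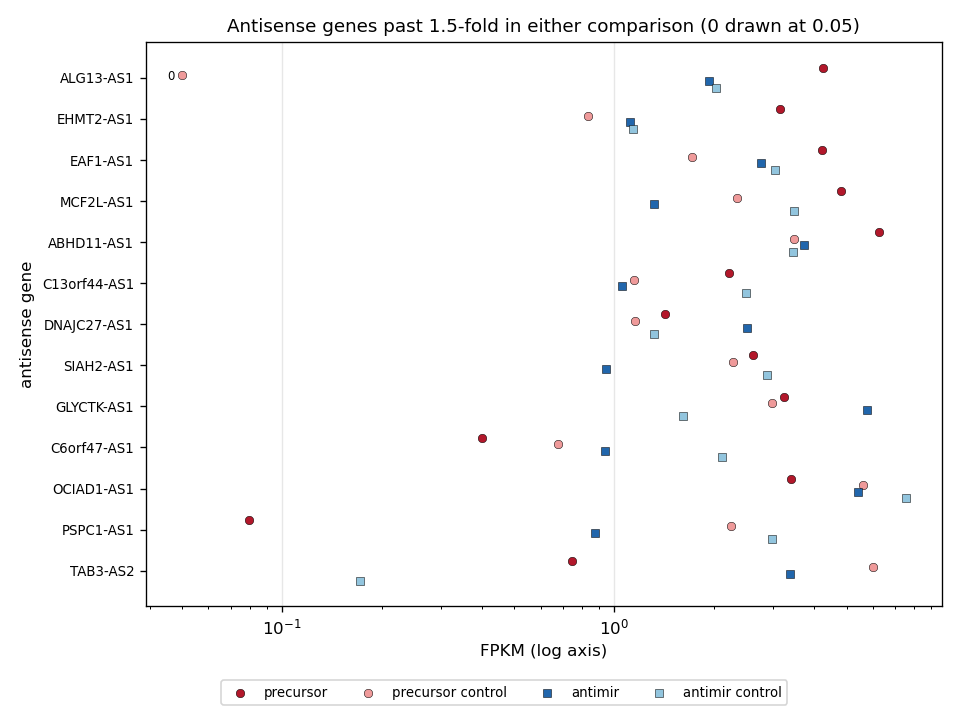
FPKM (log axis) of the 13 antisense genes past 1.5-fold in either comparison, 1 point per library. A value listed at 0 (ALG13-AS1 in the precursor control) is drawn at the left edge, and TAB3-AS2 has its precursor and its antimir control far below the other 2 libraries.

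**Figure D4:**
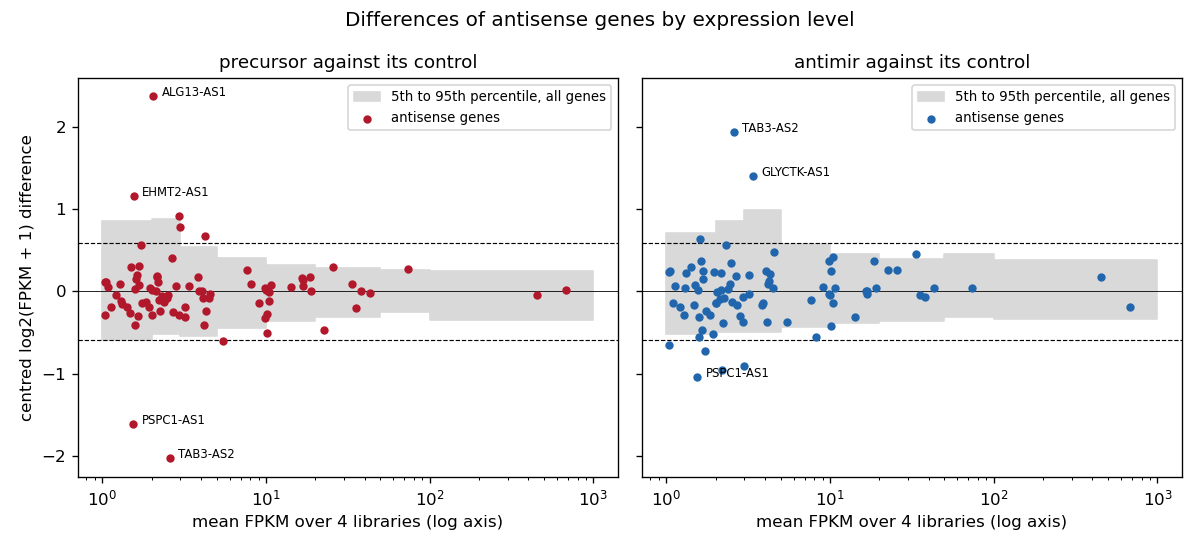
Centred difference on the log2(FPKM + 1) scale of the 86 antisense genes against their mean FPKM (log axis), precursor against its control on the left and antimir against its control on the right. Grey marks the range from the 5th to the 95th percentile of all genes of like level, dashed lines mark 1.5-fold, and the 21 genes at 10 FPKM or more all lie between these lines.

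The sense genes, most of which were more abundant, had smaller differences, with a median size of 0.099 in the precursor and 0.13 in the antimir. Of the 77 sense genes past the filter, 0 were past 1.5-fold in the precursor and 2 in the antimir, MDC1 and EPB41L4A, which were both lower. MDC1-AS1 had 3.89 FPKM in the antimir against 5.51 in its control, while MDC1, a DNA damage mediator, had 20.1 against 45.5. EPB41L4A-AS1 showed 67.7 FPKM in the antimir and 67.2 in its control beside 1.05 and 2.27 for EPB41L4A. In no pair were both genes past 1.5-fold in the same comparison. The antisense and the sense gene had a difference of the same sign in 50 of 86 pairs in the precursor and 49 of 86 in the antimir.

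By the seed match, the 11 genes with a 7-mer had a median difference of -0.13 in the precursor, with 5 above 0 and 6 below, and the 66 without one a median of 0.0056, with 36 above and 30 below. Past 1.5-fold were 0 of the 11 and 7 of the 66. In the antimir the medians were 0.073 with a match and 0.0022 without, with 2 of 11 and 5 of 66 past 1.5-fold. The 2 were GLYCTK-AS1 and DNAJC27-AS1, whose isoforms are given above. The split rests on 1 transcript per gene: PCBP1-AS1, counted as without a match, held the 7-mer in 37 of its 40 transcripts, and the transcript read carried 14.9% of its FPKM. MKRN2-AS1, also counted as without one, held it in 1 of 4.

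In the precursor comparison, the authors' deposited table called 10 of 170 tested transcripts of these genes at the authors' q-value threshold, 2 higher and 8 lower, against 13.6% of all tested transcripts, of which 5402 were called higher and 5207 lower. The 2 called higher in the authors' deposited table were ABHD11-AS1, with a q-value of 0.0103, and MCF2L-AS1, with one of 0.0115. Among those called lower in the authors' deposited table were the isoforms of TTC28-AS1 and HNRNPU-AS1 described above, with q-values of 0.00102 and 0.00125, and an isoform of OIP5-AS1 that had 0.920 FPKM in the precursor against 2.58 in its control. An isoform of C17orf76-AS1 was also called in the authors' deposited table, with 7.21 FPKM in the precursor against 11.2 in its control. The entries named by a gene identifier were called in 9 of 55 cases in the authors' deposited table, all lower, against 23.6% of such entries over all genes, with 51 called higher and 1842 lower. In the antimir comparison the authors' deposited table called 0 of 160 transcripts, against 0.414% of all tested transcripts, and 0 of 53 gene-identifier entries, against 0.137% of all of these. These q-values compare 2 libraries and not 2 conditions.

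Between the control libraries, taken from tables that were normalised separately, the antisense genes had a median centred difference of 0.29 on the log2(FPKM + 1) scale, antimir control minus precursor control, with 72 genes above 0 and 14 below. The median over all genes was 0.011 after removal of a centre of -0.35, which is larger in size than the antisense median. All genes with a mean of 1 to 5 FPKM had a median of 0.12. Other noncoding classes lay above 0 too, with a median of 0.23 for 21 LINC genes (16 above 0 and 5 below) and 0.13 for 11 SNHG genes. Past 1.5-fold were 21 of the 86 antisense genes (24.4%), against 25.3% of all genes. The directions differed: 17 antisense genes were higher and 4 lower in the antimir control, against 718 higher and 3449 lower of all 16469 genes. At 1 to 5 FPKM, 14 of 59 antisense genes were higher and 4 lower, against 431 and 1364 of 4874 genes. This contrast was not tested. DENND5B-AS1, chosen after its values were seen, had 3.14 FPKM in the precursor and 3.67 in its control, and 0.194 in the antimir and 0.761 in its control. PPP2R3B-AS1, also chosen after its values were seen, had 2.47 FPKM in the precursor and 2.71 in its control, and was listed at 0 in the antimir and in its control. Its sense gene PPP2R3B had 7.31 FPKM in the precursor and in its control, and was likewise listed at 0 in the antimir and in its control. The antimir difference of both genes, 0.038, is thus the removed centre alone, though it is counted as above 0.

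Other noncoding classes gave small counts. Of 21 LINC genes 1 was past 1.5-fold in the precursor and 0 in the antimir. Of 11 SNHG genes, 2 were past it in the precursor and 0 in the antimir. SNHG genes host small nucleolar RNAs as C17orf76-AS1, ZNFX1-AS1 and EPB41L4A-AS1 do. The 11 were taken by their listed symbol, so C17orf76-AS1 (SNHG29 in RefSeq) is not among them. The median difference in the precursor was -0.11 for the LINC genes and -0.035 for the SNHG genes, and in the antimir 0.098 and 0.097. The difference between the classes was not tested.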

How the data were processed

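RNA of 4 HT29 libraries, 1 per group, was sequenced. Per the submitters' processing notes, reads were handled with bcl2fastq 1.8.3, TopHat2 2.0.11, Cufflinks 2.2.0 and Cuffdiff on hg19. The annotation, strand and settings are not given in the sources used here. What the authors deposited were 2 tables of FPKM per isoform, and per the file headers each also holds the authors' p-value and q-value. In each table the library named with a final N was taken as the control, as the only other library there.

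An antisense gene is a single symbol ending in -AS and digits. Its FPKM is the sum over its transcripts without a failed status, or the gene-identifier entry where it has no transcript. PPP2R3B-AS1 has another identifier with identical values and was counted once. Differences are log2(FPKM + 1), treated minus control, centred on the median of genes with a mean of at least 1 FPKM in the pair. The mark of 1.5-fold (0.58 on the log2 scale) is no test. The code was tested on simulated data.

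Named genes were the 10 highest by mean, the 6 highest and 6 lowest per comparison, those past 1.5-fold in both, the 6 with the highest ratio to the sense gene, those nearest the filter and the characterised ones. A named gene is not reported here, though counts and medians include it. RAD21-AS1, UBAC2-AS1, RRM1-AS1, UBE2Q1-AS1, TTC3-AS1, TM4SF1-AS1, MKRN2-AS1 and MDC1-AS1 were named after their values were seen. The members and lists were chosen with earlier results of these data known. GENCODE 29 was matched by identifier or name for arrangement and sequences, and none of its coordinates are printed. Python 3.11.15, pandas 2.3.3, numpy 2.4.6, scipy 1.17.1 and matplotlib 3.10.9 were used.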

Additional observations from a re-analysis of the deposited data

How the results depend on the processing

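With main counts of 8 and 8 genes past 1.5-fold, in the precursor and the antimir, the counts changed with the filter. Requiring a mean of 5 FPKM left 1 and 0 of 27 genes, and no filter gave 13 and 13 of 295. A pseudocount of 0.1 gave 14 genes in the antimir. Adding the gene-identifier entry gave 4 in the precursor, out of 111 genes, since it also takes more genes past the filter. The share of antisense genes below their sense gene was 63.0% at a mean of at least 5 FPKM, against 77.9% at 1 FPKM. The cause was not tested, apart from the smaller or larger number of genes each filter keeps. The group medians stayed near 0 under each alternative run, and no gene past 1.5-fold changed direction. Of the differences of named genes short of 1.5-fold, 20 changed sign under some alternative, 4 of them with a size of at least 0.1 before and after. In the precursor, C13orf44-AS1 turned to -0.11 with its most abundant isoform and with tested isoforms, PCBP1-AS1 to 0.20 with its most abundant isoform, and C6orf47-AS1 to 0.11 with the gene-identifier entry. Of the named genes, the antimir difference of GLYCTK-AS1 dropped to 0.058 with its most abundant isoform alone and to 0.069 with isoforms tested in both tables. With the gene-identifier entry added, 9 differences of 7 named genes went below 1.5-fold, those of EHMT2-AS1, EAF1-AS1, MCF2L-AS1, TAB3-AS2, OCIAD1-AS1, SIAH2-AS1 and C6orf47-AS1, with the values given beside each result. ZEB1-AS1 in the antimir went past 1.5-fold at a pseudocount of 0.1 (0.76), with its most abundant isoform (0.71) and with tested isoforms (0.72). ZFAT-AS1 in the antimir did so at a pseudocount of 0.1 (-0.93) and without centring (-0.60). In the precursor at a pseudocount of 0.1, C13orf44-AS1 reached 0.88 and C6orf47-AS1 -0.66. Without centring, C13orf44-AS1 was just past 1.5-fold in the precursor (0.59) and OCIAD1-AS1 just short of it (-0.58). No paired analysis was possible because each group held 1 library, and no library could be left out. Depth limits cannot be given, because FPKM values carry no counts.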

Other observations

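Chromosome 3 held 17 of the 86 antisense genes (19.8%), chromosome 13 held 12 (14.0%) and chromosome X held 9 (10.5%). Of all 483 antisense symbols 28.8% lay on chromosome 3, 15.7% on chromosome 13 and 9.52% on chromosome X, and of the 16469 genes past the filter 5.60%, 1.87% and 3.55%.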
